A study of Bos taurus with 15 samples.

Results

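Integrins are paired alpha and beta chains in the cell membrane that hold cells to the matrix around them and to other cells. Laminins are trimers of one alpha, one beta and one gamma chain that build the basement membrane, the thin sheet of matrix that surrounds each adipocyte, capillary, muscle fibre and nerve. In adipose tissue the adipocyte sits in its own basement membrane, and the integrins of its surface bind laminins, collagens and fibronectin and pass the contact on to talin, kindlin and focal adhesion kinase inside the cell.

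The genes described here were those listed in all 6 of the deposited comparison tables under a symbol of an integrin alpha subunit, an integrin beta subunit or a laminin alpha, beta or gamma chain, with binding proteins (symbols holding BP) left out. There were 26 of them among 13896 genes, namely 13 integrin alpha subunits, 8 integrin beta subunits and 5 laminin chains. The choice used names only and no measured value. By ligand, 4 were laminin receptors, 7 were receptors of the RGD motif of fibronectin and vitronectin (1 of which, ITGA2B, pairs with ITGB3 in platelets), 2 were collagen receptors, 6 were integrins of leukocytes and 2 (ITGB1 and ITGA9) were shared or other subunits.

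The tissue was white fat taken under the skin of the dewlap from primiparous Prim Holstein cows, and 15 libraries of ribosome-depleted RNA were compared, 3 in each of 5 groups. The first group was sampled at -4 weeks peripartum (wkpp), before the diets began, and its 3 libraries belong to neither diet and serve both comparisons with 1 wkpp. The other groups were sampled at 1 and 16 wkpp from cows on the low energy diet (LE), called SNEB for severe negative energy balance, or on the high energy diet (HE), called MNEB for moderate negative energy balance, both fed from one month before calving. The study sequenced the 3 cows of each energy balance group that were most extreme at 1 wkpp, so the groups stand for the ends of the range. Diet and selected energy balance coincide in these groups and cannot be told apart. Where the diets are named below, LE with SNEB is set against HE with MNEB. The tables gave no column per library, and the counts of each library were worked out from the deposited means. Libraries are numbered within a group from the most to the fewest reads, and a number does not name a cow.

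The MNEB libraries stood apart from all others in the reads counted on genes. They held 2034144 to 7565988 exonic reads on genes, against 8339235 to 14928006 in the other 9 libraries. Synthetic spike-in RNAs took 3.64% to 25.2% of the reads on exons and spike-ins in the 6 MNEB libraries and 0.239% to 1.91% in the other 9. These shares cover the 87 of 92 spike-ins with solved counts in both analyses and are therefore lower bounds. Per the study's sequencing summary, MNEB libraries were sequenced to totals like those of the others but had lower aligned shares. Counted reads, aligned share, spike-in share and MNEB therefore cannot be told apart, which touches every comparison of an MNEB group below with -4 wkpp or SNEB. The sample titles also carry a mark, m1 for -4 wkpp, MNEB at 1 wkpp and SNEB at 16 wkpp and m2 for the other groups, whose meaning is not stated. Perilipin (PLIN1), the coat of the adipocyte's lipid droplet, was at 3005 to 25581 normalised reads in the 15 libraries. The keratinocyte genes KRT5 and KRT14 were at 92.3 and 96.0 in MNEB library 3 at 1 wkpp. In the other libraries they were at 0 to 20.2. The 5 keratinocyte markers summed to 60.7 to 797, with DSP alone at 54.5 to 793. The 2 milk protein genes in the tables summed to 0 to 16.3. In bulk tissue, fewer cells of a type and less RNA per cell cannot be told apart.

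Levels below are exonic read counts of a gene divided by the size factor of the library. A gene passed a comparison when limma voom gave an adjusted p (Benjamini-Hochberg over all genes tested) below 0.01 both for exonic reads and for all reads on the gene, introns included, with the same sign. Of the 26 genes, 25 had enough reads to be tested in 5 of the comparisons and 24 in the MNEB comparison of 1 with 16 wkpp. ITGB6, the beta subunit that activates TGF-beta on epithelium, was tested in none, with 0 to 32.6 normalised reads per library and 0 in all 3 MNEB libraries at 16 wkpp. ITGAD, a leukocyte alpha subunit, was not tested between MNEB at 1 and 16 wkpp.

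Across the 6 comparisons, 4 of the 26 genes passed at least once. LAMA4 had more reads in the libraries at -4 wkpp than in those of MNEB at 1 wkpp, where 1 of 25 genes passed beside 2.97% of all genes tested. ITGA3, ITGA5 and ITGA7 were lower in SNEB than in MNEB at 16 wkpp, where 3 of 25 passed beside 5.23%. No integrin or laminin gene passed between -4 wkpp and SNEB at 1 wkpp, between 1 and 16 wkpp in either group, or between the diets at 1 wkpp.

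**Figure D1:**
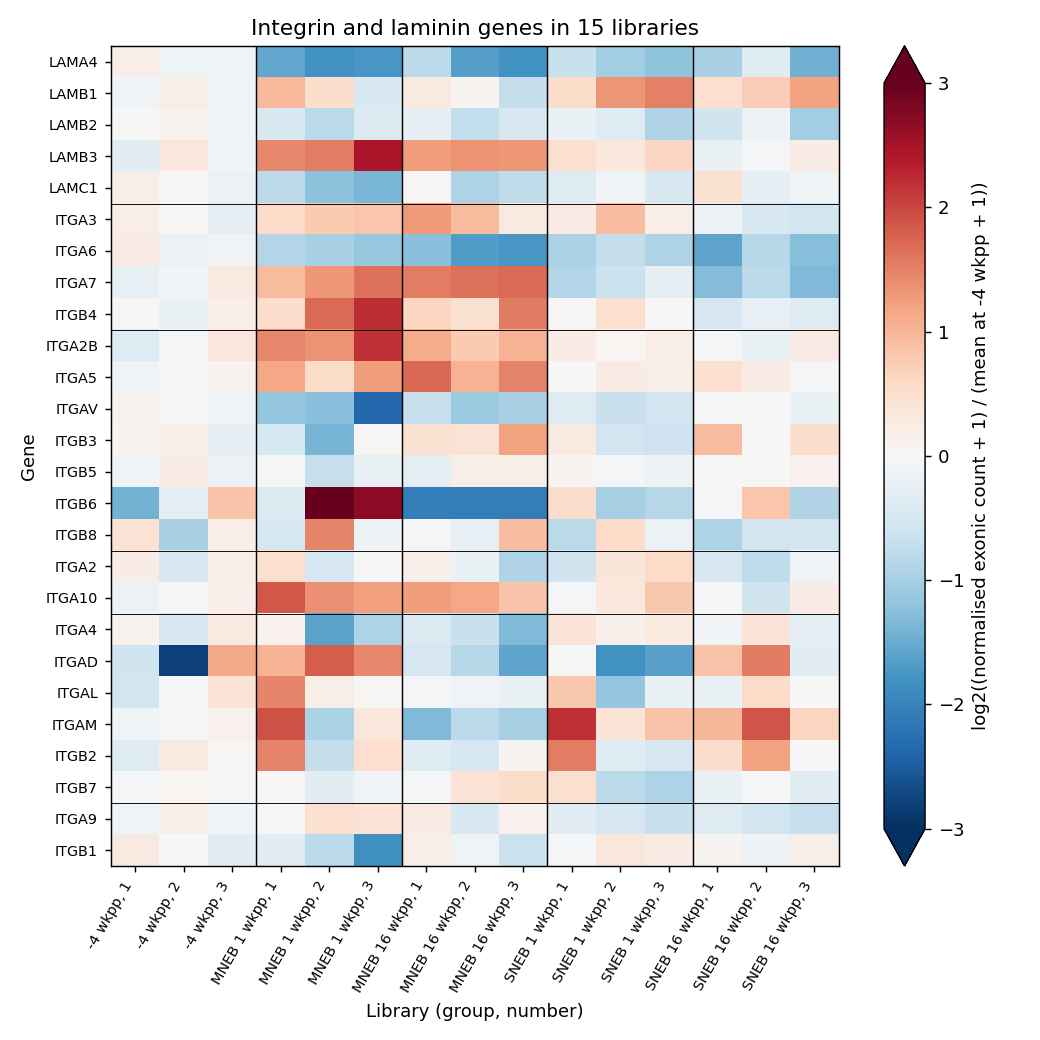
Heat map of the 26 genes (vertical axis) in the 15 libraries (horizontal axis, grouped by vertical lines). The colour is the log2 ratio of (normalised exonic count + 1) to (mean at -4 wkpp + 1); ITGA7, ITGA5, ITGA10, ITGA2B and LAMB3 are red in all 6 MNEB libraries, and LAMA4 is blue in all 12 libraries taken after calving.

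Of the 5 laminin chains, 1 passed, between -4 wkpp and MNEB at 1 wkpp. LAMA4 encodes the alpha 4 chain, which with a beta 1 or beta 2 chain and the gamma 1 chain forms the laminins of vessels and adipocytes. Its normalised exonic count was 19688, 15459 and 15890 at -4 wkpp, 5738, 4839 and 5076 in MNEB at 1 wkpp, and 10702, 8251 and 7323 in SNEB at 1 wkpp. At 16 wkpp it was 9737, 5403 and 4863 in MNEB and 8676, 13208 and 6288 in SNEB. Every library at -4 wkpp lay above every library after calving, and the 2 groups at 1 wkpp did not overlap each other.

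The mean of LAMA4 was 17012 ± 2327 (SD, n = 3) at -4 wkpp and 5217 ± 466 (SD, n = 3) in MNEB at 1 wkpp. It was higher at -4 wkpp by a log2 fold change of 1.71 ± 0.21 (SE), or 3.27-fold, with an adjusted p of 0.000394 for exonic reads, and of 1.87 ± 0.27 with an adjusted p of 0.00713 for all reads on the gene (limma voom). Of 10421 genes tested in this comparison, 2.97% passed, 1.62% as higher and 1.35% as lower at -4 wkpp. That split was 169 and 141 genes, and 161 of 478 passing genes were higher where libraries were scaled by total counts. Among the 25 integrin and laminin genes tested, 1 passed. The call was lost when any 1 library other than MNEB library 1 was left out, with a log2 fold change of 1.61 to 1.81 throughout. With the deepest MNEB library alone it was 1.53 (adjusted p 0.00854 for exonic reads and 0.0431 for all reads, the lone library being assumed to vary like the others). Against SNEB at 1 wkpp the same difference was 0.97 ± 0.21, with an adjusted p of 0.0620 for exonic and 0.0611 for all reads, and did not pass. Both comparisons share the 3 libraries at -4 wkpp, and the difference between them was not tested.

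LAMC1 encodes the gamma 1 chain, a part of most laminins. It was at 19351, 16961 and 15033 at -4 wkpp, 9985, 7300 and 6623 in MNEB at 1 wkpp and 13119, 15959 and 12358 in SNEB at 1 wkpp. The MNEB libraries lay below both other groups. Against MNEB at 1 wkpp the log2 fold change of -4 wkpp was 1.13 ± 0.24 (adjusted p 0.00523 for exonic and 0.0363 for all reads, limma voom), short of passing in both. In MNEB at 16 wkpp it was at 17496, 9035 and 10169 and in SNEB at 16 wkpp at 23671, 13905 and 15663, and these groups overlapped.

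Neither of the beta chains that can complete a laminin with LAMA4 and LAMC1 passed. LAMB1, the beta 1 chain, was at 4301, 5201 and 4189 at -4 wkpp, 8951, 6567 and 3330 in MNEB and 6705, 11446 and 12982 in SNEB at 1 wkpp. LAMB2, the beta 2 chain, was at 11114, 11755 and 10137 at -4 wkpp, 7963, 6285 and 8178 in MNEB and 9529, 8389 and 5895 in SNEB at 1 wkpp. In SNEB the LAMB1 libraries at 1 wkpp all lay above those at -4 wkpp, and in MNEB they overlapped them. For LAMB2 all libraries of both groups at 1 wkpp lay below those at -4 wkpp. Against MNEB at 1 wkpp the log2 fold change of -4 wkpp was -0.33 ± 0.34 for LAMB1 (adjusted p 0.482, limma voom) and 0.58 ± 0.21 for LAMB2 (adjusted p 0.0582). Against SNEB at 1 wkpp the log2 fold change of -4 wkpp was -1.14 ± 0.25 for LAMB1 (adjusted p 0.0688, limma voom) and 0.50 ± 0.21 for LAMB2 (adjusted p 0.326).

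The ratio of the 2 beta chains, chosen after the values were seen and therefore given as a description, was steady before calving and spread afterwards. There were 0.387, 0.442 and 0.413 exonic LAMB1 reads per LAMB2 read at -4 wkpp. At 1 wkpp the ratio was 1.12, 1.04 and 0.407 in MNEB and 0.704, 1.36 and 2.20 in SNEB, and at 16 wkpp it was 0.613, 0.736 and 0.351 in MNEB and 0.890, 0.760 and 1.96 in SNEB. All 6 SNEB libraries were above the 3 at -4 wkpp, while 1 MNEB library at each time was within or below them.

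LAMB3, the beta 3 chain of an epithelial laminin, moved the other way from LAMA4. It was at 120, 191 and 144 at -4 wkpp, 415, 442 and 827 in MNEB and 213, 189 and 233 in SNEB at 1 wkpp, and 364, 385 and 378 in MNEB and 130, 148 and 178 in SNEB at 16 wkpp. All 6 MNEB libraries lay above the other 9. For exonic reads the log2 fold change was -1.78 ± 0.30 for -4 wkpp over MNEB at 1 wkpp (adjusted p 0.00185, limma voom) and -1.31 ± 0.18 for SNEB over MNEB at 16 wkpp (adjusted p 0.00177). For all reads the adjusted p was 0.0219 and 0.0117, so that LAMB3 passed in neither comparison.

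Among the 25 genes tested at 16 wkpp, the largest difference between the diets was that of a laminin receptor. ITGA7 encodes the alpha 7 subunit, which pairs with ITGB1 and binds laminin, and is known best from skeletal and smooth muscle. Its normalised exonic count was 792, 878 and 1128 at -4 wkpp, 1793, 2304 and 2872 in MNEB and 509, 595 and 763 in SNEB at 1 wkpp. At 16 wkpp it was 2720, 2930 and 3011 in MNEB and 376, 531 and 369 in SNEB. The SNEB libraries lay below those at -4 wkpp and the MNEB libraries above them, at both times and without overlap.

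Its mean at 16 wkpp was 425 ± 91.2 (SD, n = 3) in SNEB. In MNEB the mean of ITGA7 was 2887 ± 150 (SD, n = 3). SNEB over MNEB gave a log2 fold change of -2.78 ± 0.18 (SE) for exonic reads, with an adjusted p of 0.000360, and -2.79 ± 0.19 for all reads, with an adjusted p of 0.000661 (limma voom), a 6.89-fold lower level in SNEB by exonic reads. Of 10162 genes tested, 5.23% passed, 3.65% as lower and 1.57% as higher in SNEB. Among the 25 integrin and laminin genes 3 passed, all as lower. ITGA7 passed without any 1 of the 6 libraries, at a log2 fold change of -2.95 to -2.69. With the deepest MNEB library alone it was -2.70, with an adjusted p of 0.0158 for exonic and 0.0387 for all reads. For ITGA7 at 1 wkpp it was -1.88 ± 0.24, with an adjusted p of 0.00697 for exonic reads and 0.0280 for all reads, and the gene did not pass.

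Muscle genes were read beside ITGA7. The summed level of the 7 skeletal muscle markers in the tables was 1178 to 4102 in the 6 MNEB libraries and 86.1 to 356 in the other 9, but nearly all of it was TNNT3, a fast muscle troponin, at 1175 to 3958 in MNEB, which also passed at 16 wkpp (-3.28 ± 0.29, adjusted p 0.000565 for exonic reads, limma voom). The other 6 markers, among them the actin ACTA1, the myosins MYH1, MYH2 and MYH7 and the creatine kinase CKM, were at 0 to 95.0 in all 15 libraries. The 6 smooth muscle markers summed to 23345 to 68783 in MNEB and 5053 to 16662 in SNEB at 16 wkpp, without overlap. At 1 wkpp they summed to 17186 to 25109 in MNEB and 9359 to 18194 in SNEB, and the groups overlapped. At -4 wkpp they summed to 11072 to 49232. The highest sum at -4 wkpp was in library 1, where ITGA7 was at 792, against 1793 to 2872 in MNEB at 1 wkpp. SMTN, smoothelin, went the other way from the sum, at 1088 in that library and 2795 to 5763 in MNEB at 1 wkpp. Of the 6 smooth muscle markers only SMTN passed at 16 wkpp, at a log2 fold change of -2.91 (adjusted p 0.000673 for exonic reads, limma voom). The part of smooth muscle in the ITGA7 difference was not tested. In the RefSeq annotation of a later assembly (ARS-UCD2.0), ITGA7 overlaps TMT1B, which was not analysed here. Among the other genes that passed, ITGA5 overlaps LOC112446664 and LOC112446663 there, while ITGA3 and LAMA4 overlap no other gene.

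ITGA3, the alpha 3 subunit of a laminin receptor that pairs with ITGB1 and is typical of epithelium, was at 488, 434 and 355 at -4 wkpp, 638, 730 and 753 in MNEB and 501, 812 and 491 in SNEB at 1 wkpp. At 16 wkpp it was at 1038, 829 and 514 in MNEB, with a mean of 793 ± 264 (SD, n = 3), and at 374, 304 and 284 in SNEB, with a mean of 320 ± 47.0 (SD, n = 3). The groups overlapped at 1 wkpp and not at 16 wkpp. For ITGA3 the log2 fold change of SNEB over MNEB at 16 wkpp was -1.29 ± 0.25 (adjusted p 0.00757) for exonic reads and -1.40 ± 0.22 (adjusted p 0.00442) for all reads (limma voom). With scaling by upper quartile ITGA3 did not pass (adjusted p 0.01004 for exonic reads). Of the 6 fits that left out 1 library, it passed only without MNEB library 3, and its log2 fold change ranged from -1.55 to -1.04. At 1 wkpp it was -0.24 ± 0.25, with an adjusted p of 0.523.

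ITGA6 and ITGB4 form the laminin receptor of hemidesmosomes, and ITGA6 also pairs with ITGB1. ITGB4 was at 2304, 2023 and 2602 at -4 wkpp, 3307, 7509 and 10780 in MNEB and 2317, 3226 and 2299 in SNEB at 1 wkpp, and 3611, 3175 and 6766 in MNEB and 1631, 1954 and 1773 in SNEB at 16 wkpp. The MNEB libraries lay above the SNEB libraries at each time. The log2 fold change of SNEB over MNEB was -1.32 ± 0.39 at 1 wkpp (adjusted p 0.0472, limma voom) and -1.27 ± 0.28 at 16 wkpp (adjusted p 0.0128), and neither passed. MNEB library 3 at 1 wkpp, the highest in ITGB4 (10780) and LAMB3 (827), was also the highest in the keratinocyte genes KRT5 and KRT14. The part of keratinocytes was not tested. ITGA6, in contrast, was at 7990, 6042 and 6308 at -4 wkpp and at 2018 to 4150 in the 12 libraries after calving, of either diet. For exonic reads its log2 fold change of -4 over 1 wkpp was 0.99 ± 0.21 against MNEB (adjusted p 0.00531) and 0.85 ± 0.18 against SNEB (adjusted p 0.0611). For all reads it was 0.45 ± 0.25 and 0.41 ± 0.19, with an adjusted p of 0.273 and 0.443.

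**Figure D2:**
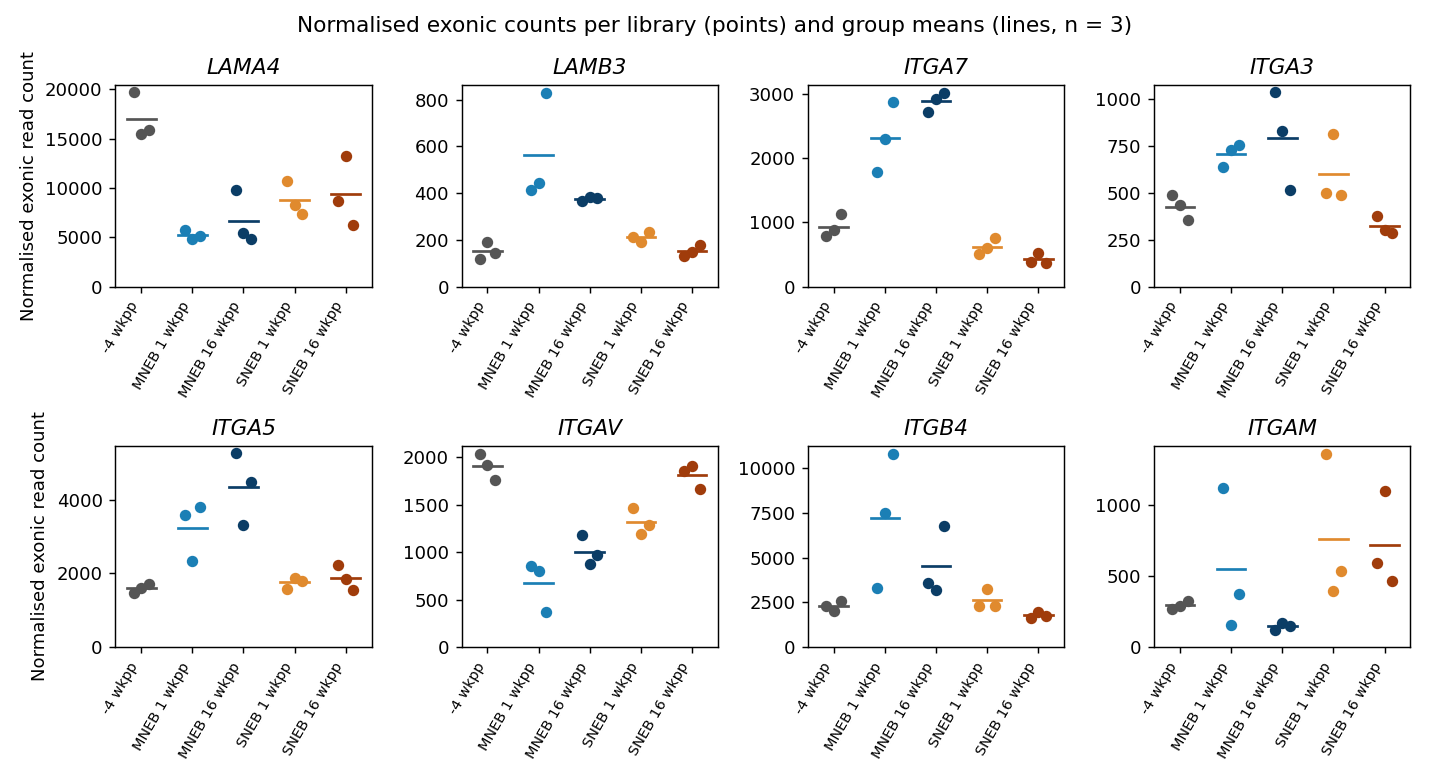
Normalised exonic read counts (vertical axes, each from 0) of 8 genes in the 5 groups (horizontal axes), with 1 point per library and a line at each group mean (n = 3). LAMA4 is highest at -4 wkpp, ITGA7, ITGA5 and LAMB3 are above all other libraries in MNEB, and ITGAM is at 119 to 173 in MNEB at 16 wkpp.

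Among the receptors of the RGD motif, ITGA5 passed at 16 wkpp. ITGA5 encodes the alpha 5 subunit, which with ITGB1 is the main receptor of fibronectin. It was at 1481, 1606 and 1710 at -4 wkpp, 3581, 2328 and 3788 in MNEB and 1576, 1888 and 1804 in SNEB at 1 wkpp, and 5267, 3307 and 4474 in MNEB and 2236, 1861 and 1550 in SNEB at 16 wkpp. All 6 MNEB libraries were above the other 9. At 16 wkpp its mean in MNEB was 4349 ± 986 (SD, n = 3). The SNEB mean was 1882 ± 343 (SD, n = 3). SNEB over MNEB gave a log2 fold change of -1.17 ± 0.22 (adjusted p 0.00635) for exonic reads and -1.25 ± 0.19 (adjusted p 0.00448) for all reads (limma voom). It passed in 1 of the 6 fits that left out 1 library, that without MNEB library 2, with a log2 fold change of -1.36 to -1.04 over all 6. At 1 wkpp it was -0.83 ± 0.23, with an adjusted p of 0.0432 for exonic and 0.198 for all reads.

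ITGAV, the alpha V subunit that pairs with ITGB1, ITGB3, ITGB5, ITGB6 or ITGB8, had the opposite pattern in exonic reads and was described after its values were seen. It was at 2038, 1920 and 1763 at -4 wkpp, 852, 801 and 373 in MNEB and 1469, 1195 and 1289 in SNEB at 1 wkpp, and 1178, 875 and 968 in MNEB and 1850, 1908 and 1665 in SNEB at 16 wkpp. Each MNEB library lay below every library at -4 wkpp and in SNEB. Its log2 fold change was 1.54 ± 0.30 for -4 wkpp over MNEB at 1 wkpp (adjusted p 0.00384, limma voom) and 0.85 ± 0.17 for SNEB over MNEB at 16 wkpp (adjusted p 0.00924). For all reads these were 0.86 ± 0.25 (adjusted p 0.0634) and 0.34 ± 0.16 (adjusted p 0.177), and ITGAV did not pass. Scaled in the same way, the -4 wkpp libraries held 1425, 1473 and 1759 intronic reads of ITGAV. In MNEB at 1 wkpp there were 1400, 1299 and 1017, a narrower gap than that of the exonic reads. The number of exonic ITGA5 reads per ITGAV read, also chosen after the values were seen, was 0.727 to 0.970 at -4 wkpp, 2.91 to 10.2 in the 6 MNEB libraries and 0.931 to 1.58 in the 6 SNEB libraries.

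The beta subunits of the RGD receptors did not pass in any comparison. ITGB3, the partner of ITGAV and ITGA2B, was at 1137, 1203 and 876 at -4 wkpp, 746, 407 and 1100 in MNEB and 1288, 722 and 695 in SNEB at 1 wkpp, and 1476, 1443 and 2486 in MNEB and 2053, 1055 and 1535 in SNEB at 16 wkpp. In MNEB all libraries at 16 wkpp were above those at 1 wkpp, with a log2 fold change of 1 over 16 wkpp of -1.35 ± 0.36 and an adjusted p of 0.233 (limma voom). ITGB5, which binds vitronectin with ITGAV, was the steadiest of them, at 1848 to 3470 in the 15 libraries and with log2 fold changes between -0.37 and 0.31 in the 6 comparisons. ITGB8, which with ITGAV activates TGF-beta, was at 71.1 to 388. Only 14.8% of its reads were exonic, so that the analyses of exonic and of all reads rest on largely different reads.

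ITGA2B, the alpha subunit of the platelet fibrinogen receptor, was named after its values were seen. It met the threshold of the adjusted p in exonic reads but not in all reads. It was at 123, 158 and 205 at -4 wkpp, 445, 415 and 746 in MNEB and 190, 168 and 187 in SNEB at 1 wkpp, and 349, 281 and 337 in MNEB and 158, 141 and 192 in SNEB at 16 wkpp. All MNEB libraries were above all others. At 1 wkpp the log2 fold change of SNEB over MNEB was -1.45 ± 0.25 in exonic reads (adjusted p 0.00987, limma voom) and -1.28 ± 0.24 in all reads (adjusted p 0.0423). At 16 wkpp it was -0.92 ± 0.21 in all reads (adjusted p 0.0194), and the adjusted p was 0.00670 in exonic reads. PF4, the 1 platelet marker in the tables of 5 listed, was at 35.3 to 620 in MNEB, 8.42 to 104 in SNEB and 17.2 to 28.1 at -4 wkpp, so that the diets overlapped. The part of platelets was not tested.

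Of the collagen receptors, ITGA10, best known from cartilage, was at 102, 114 and 126 at -4 wkpp, 415, 296 and 270 in MNEB and 110, 143 and 200 in SNEB at 1 wkpp, and 272, 256 and 207 in MNEB and 114, 75.1 and 134 in SNEB at 16 wkpp. All 6 MNEB libraries were above the other 9. At 16 wkpp the log2 fold change of SNEB over MNEB was -1.24 ± 0.25 (adjusted p 0.00886 for exonic and 0.0182 for all reads, limma voom), and ITGA10 passed in none of the 6 comparisons. ITGA2, which binds collagen on platelets and epithelium, was at 59.8 to 167 and its groups overlapped in every comparison.

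The leukocyte integrins did not pass in any comparison, and several were spread within a group. ITGAM encodes the alpha M subunit (CD11b) of macrophages and neutrophils. It was at 273, 294 and 329 at -4 wkpp, 1122, 155 and 377 in MNEB and 1358, 398 and 538 in SNEB at 1 wkpp, and 119, 173 and 150 in MNEB and 593, 1099 and 470 in SNEB at 16 wkpp. At 16 wkpp each SNEB library was above each MNEB library. There, SNEB over MNEB gave a log2 fold change of 2.29 ± 0.39 for exonic reads (adjusted p 0.00396, limma voom) and 2.09 ± 0.43 for all reads (adjusted p 0.0130), short of passing. It passed as higher in SNEB with limma trend, with quality weights, at an adjusted p of 0.05 and without SNEB library 2 (1.93, adjusted p 0.00286 and 0.00624). At 1 wkpp it was 0.53 ± 0.69, with an adjusted p of 0.627, and 1 library of each diet was far above the other 2.

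Macrophage markers were read beside ITGAM. At 16 wkpp the 5 in the tables summed to 10495 to 13768 in SNEB and 1979 to 2279 in MNEB, and 2 of them, CD163 and CSF1R, passed as higher in SNEB, beside 1.57% of all genes tested. CD163, a scavenger receptor of resident macrophages, differed by a log2 fold change of 3.30 (adjusted p 0.000360 for exonic reads, limma voom). The 4 neutrophil markers summed to 154 to 563 in SNEB and 89.4 to 190 in MNEB and overlapped. The part of cell number in the ITGAM difference was not tested.

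ITGB2 encodes the beta 2 subunit shared by the leukocyte integrins. It was at 357, 560 and 474 at -4 wkpp, 1302, 282 and 661 in MNEB and 1349, 357 and 325 in SNEB at 1 wkpp, and 358, 320 and 490 in MNEB and 673, 1076 and 458 in SNEB at 16 wkpp. Its groups overlapped in all 6 comparisons, and its log2 fold change of SNEB over MNEB at 16 wkpp was 0.88 ± 0.32 with an adjusted p of 0.0769 (limma voom). The 2 libraries at 1 wkpp that were highest in ITGAM were also highest in ITGB2. ITGB7, the beta subunit of gut-homing lymphocytes, was at 93.8 to 264 and its exonic counts overlapped in all 6 comparisons.

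Of the other alpha subunits of leukocytes, ITGA4, which binds VCAM1, was at 62.4 to 251 and ITGAL, the alpha subunit of LFA-1 on lymphocytes, at 78.2 to 491. ITGAD had 0.613 to 38.0 normalised reads, the fewest of the tested genes. Its log2 fold change of SNEB over MNEB was -2.68 ± 0.76 at 1 wkpp (adjusted p 0.0437 for exonic and 0.120 for all reads, limma voom) and 1.51 ± 0.82 at 16 wkpp (adjusted p 0.207), and it did not pass.

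ITGB1, the beta 1 subunit, is the partner of ITGA2, ITGA3, ITGA4, ITGA5, ITGA6, ITGA7, ITGA9, ITGA10 and ITGAV. It was at 8501, 6938 and 5587 at -4 wkpp, 5572, 3986 and 1971 in MNEB and 6719, 8935 and 8116 in SNEB at 1 wkpp, and 8020, 6441 and 4487 in MNEB and 7420, 6305 and 7971 in SNEB at 16 wkpp. In exonic reads only the MNEB libraries at 1 wkpp lay apart, below both -4 wkpp and SNEB at 1 wkpp. The nearest values of MNEB and -4 wkpp were 5572 and 5587. In all reads MNEB at 1 wkpp overlapped -4 wkpp (adjusted p 0.273, limma voom). For ITGB1 the log2 fold change of SNEB over MNEB was 1.19 ± 0.37 at 1 wkpp (adjusted p 0.0574, limma voom) and 0.26 ± 0.25 at 16 wkpp (adjusted p 0.464). At 16 wkpp, where ITGA3, ITGA5 and ITGA7 differed between the diets, their common beta subunit thus did not pass. ITGA9, which binds tenascin and VCAM1, was at 613 to 1379. In exonic reads its log2 fold change of SNEB over MNEB at 1 wkpp was -0.77 ± 0.21 (adjusted p 0.0421) and in all reads it was 0.00 ± 0.20, with 15.5% of its reads exonic over the 15 libraries.

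**Figure D3:**
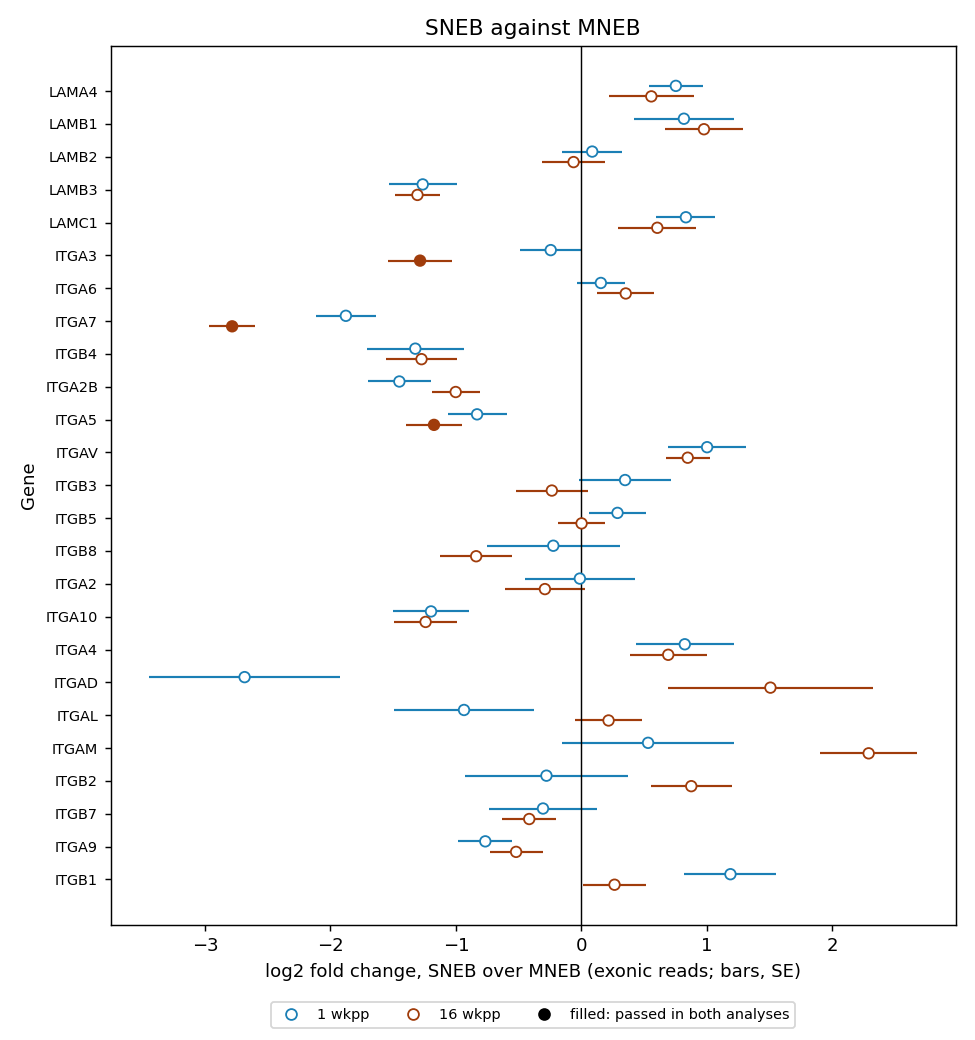
Log2 fold change of SNEB over MNEB for exonic reads (horizontal axis, bars are SE) of the 25 tested genes (vertical axis) at 1 and 16 wkpp; filled points passed for exonic and for all reads. ITGA7, ITGA5 and ITGA3 are filled at 16 wkpp, at -2.78, -1.17 and -1.29, and no point is filled at 1 wkpp.

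Between -4 wkpp and MNEB at 1 wkpp, 8 of the 25 genes had an adjusted p below 0.01 in exonic reads (limma voom), against 16.6% of all 10421 genes tested. LAMA4, LAMC1, ITGA6 and ITGAV were higher at -4 wkpp and LAMB3, ITGA2B, ITGA7 and ITGA10 were lower. The exonic counts of the groups did not overlap for 13 of the 25, beside 46.9% of all genes tested, and 14 had an unadjusted p below 0.05, beside 42.2%. The median log2 fold change of the 25 was -0.29 beside 0.04 over all genes. In the comparison of -4 wkpp with SNEB at 1 wkpp 0 of 25 genes passed beside 0.0566% of 10598, and 0 had an adjusted p below 0.01 in exonic reads alone beside 0.491%. The exonic counts of the groups did not overlap for 9 of the 25, beside 19.8% of all genes. An unadjusted p below 0.05 in exonic reads was found for 8 beside 14.6% (limma voom, and 0 passed in the limma trend fit). Those 8 were ITGA6, ITGA7, ITGA9, ITGAV, LAMA4 and LAMB2, higher at -4 wkpp, and ITGAM and LAMB1, lower. Both comparisons rest on the same 3 libraries at -4 wkpp.

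**Figure D4:**
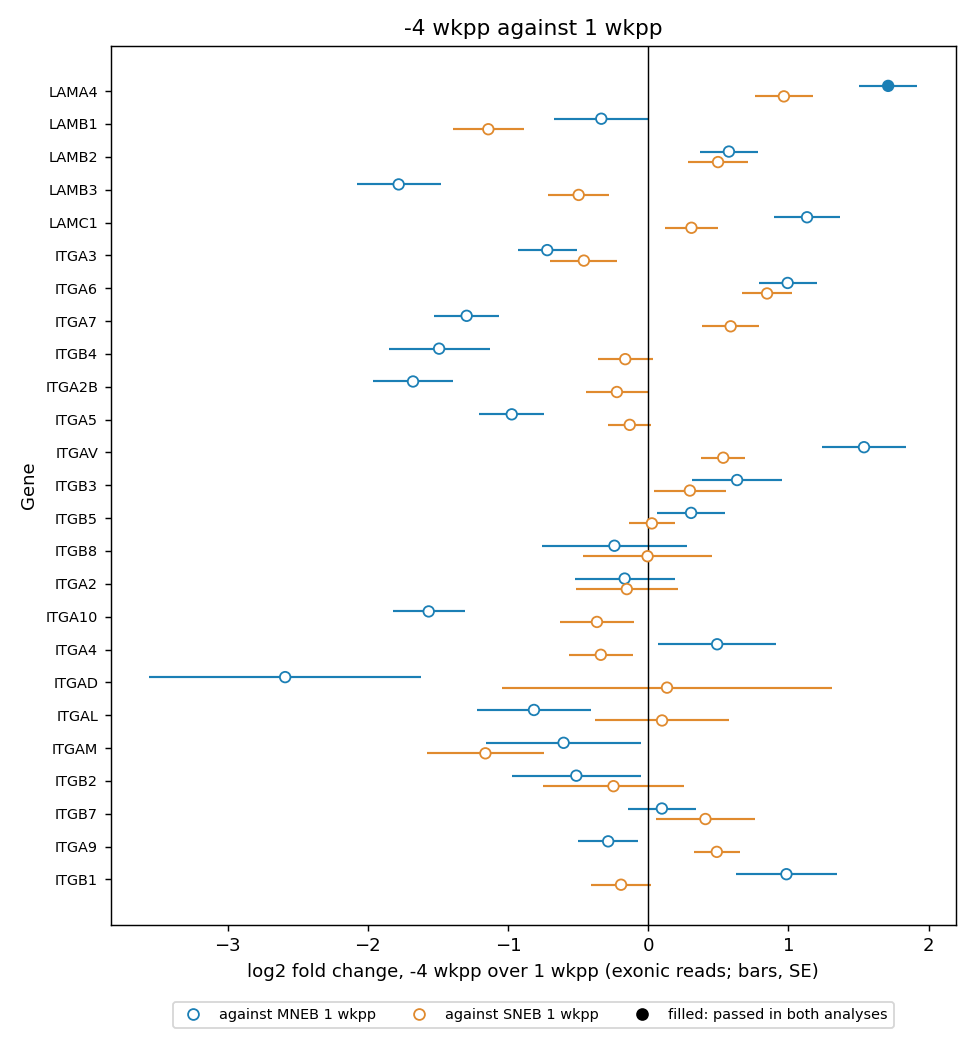
Log2 fold change of -4 over 1 wkpp for exonic reads (horizontal axis, bars are SE) of the 25 tested genes (vertical axis), against MNEB and against SNEB at 1 wkpp; the filled point passed for exonic and for all reads. LAMA4 is right of 0 in both, at 1.71 and 0.97, while ITGA7 is at -1.29 against MNEB and at 0.59 against SNEB.

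At 1 wkpp 0 of the 25 genes passed between the diets, as did 0% of the 10372 genes tested. In exonic reads alone 2 (ITGA7 and ITGA2B) had an adjusted p below 0.01 beside 2.45% of all genes, and 12 had an unadjusted p below 0.05 beside 32.3% (limma voom). The limma trend fit called 0 as well. At 16 wkpp exonic reads alone gave 8 of 25 at an adjusted p below 0.01 beside 10.3%, and 13 at an unadjusted p below 0.05 beside 38.3%. LAMB3, ITGA2B, ITGA3, ITGA5, ITGA7 and ITGA10 were lower and ITGAM and ITGAV higher in SNEB. Exonic counts of the diets did not overlap for 13 of 25 genes at 1 wkpp, beside 39.7% of all genes, and for 13 of 25 at 16 wkpp, beside 44.1%. The medians of the log2 fold changes were -0.22 and -0.06, beside 0.07 and 0.03 over all genes.

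Exonic and all reads gave log2 fold changes of the same sign for all of the genes that differed in exonic reads at 16 wkpp. ITGA7, ITGA5 and ITGA3 were as large or larger in all reads. ITGAV, with 48.2% of its reads exonic, was at 0.85 for exonic and 0.34 for all reads. LAMB3, with 56.7% exonic, went from -1.31 to -0.96. The reads of LAMB2 were 98.1% exonic and those of ITGA7 79.3%.

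**Figure D5:**
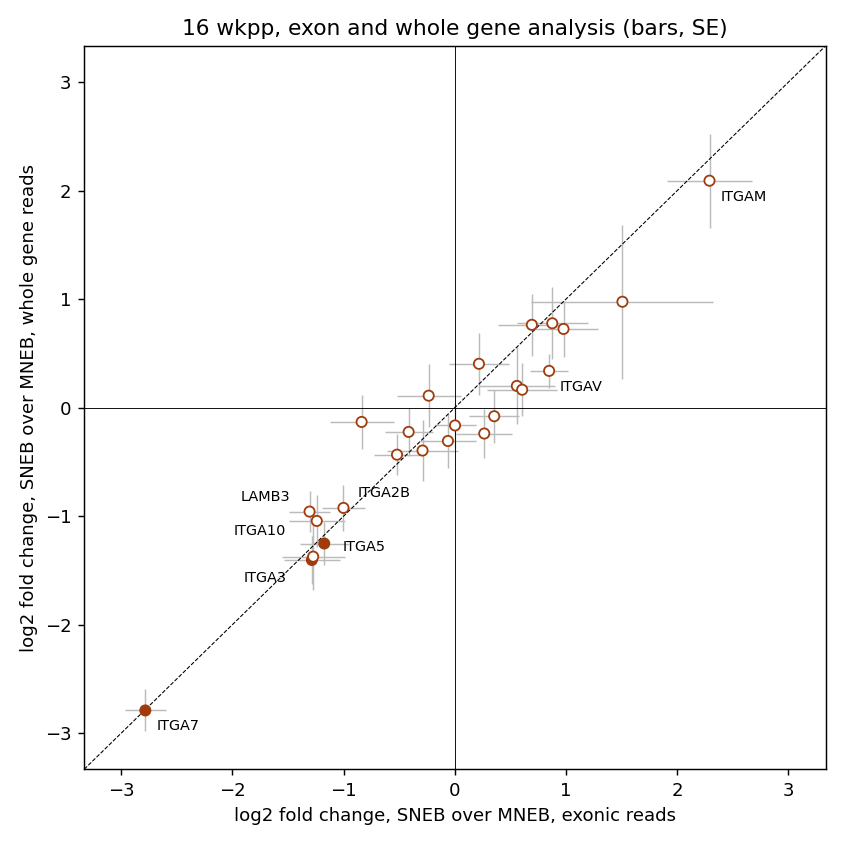
Log2 fold change of SNEB over MNEB at 16 wkpp for exonic reads (horizontal axis) and for all reads on the gene (vertical axis), 1 point per gene with SE bars and a dashed line of equal values; filled points passed in both. ITGA7 lies on the line at -2.78 and -2.79, and ITGAV lies below it at 0.85 and 0.34.

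Between 1 and 16 wkpp 0 of 24 genes passed in MNEB and 0 of 25 in SNEB, beside 0% of 9804 and 0% of 10498 genes tested (limma voom, and 0 of them in the limma trend fit too). An unadjusted p below 0.05 in exonic reads was found for 4 in MNEB (ITGA2B, ITGA6, ITGAM and ITGB3) beside 13.5% of all genes. In SNEB it was found for 7 (ITGA3, ITGA7, ITGAD, ITGAV, ITGB3, ITGB4 and LAMB3) beside 7.22%. Exonic counts of the times did not overlap for 6 of 24 in MNEB, beside 20.1% of all genes, and for 4 of 25 in SNEB, beside 12.1%. In SNEB, ITGAV and ITGB3 had log2 fold changes of 1 over 16 wkpp of -0.48 ± 0.15 and -0.80 ± 0.30. ITGA3, ITGA7, ITGB4 and LAMB3 had values of 0.46 to 0.85 there, and ITGAD had -2.04 ± 0.79.

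Whether the change from 1 to 16 wkpp differed between the diets was tested directly over the 12 libraries. None of the 25 genes passed, as did 0% of 10256 genes, and 3 (ITGA3, ITGA7 and ITGAD) had an unadjusted p below 0.05 in exonic reads beside 4.93% of all genes (limma voom). For ITGA7 the log2 fold change of 1 over 16 wkpp was 0.53 ± 0.21 in SNEB and -0.34 ± 0.22 in MNEB. The difference of 0.88 ± 0.31 had an adjusted p of 0.982. For ITGA3 the difference was 1.03 ± 0.37, also with an adjusted p of 0.982. ITGAD, with few reads, had the largest of the 3 and of opposite sign, at -4.21 ± 1.14 (adjusted p 0.946). The presence of ITGA3, ITGA5 and ITGA7 among the passing genes at 16 and not at 1 wkpp is therefore not shown to be a change over time.

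The genes around these receptors were taken from 3 lists. Of 14 basement membrane genes, 7 were in the tables. COL18A1, the collagen of vessel basement membranes that releases endostatin, was lower at -4 wkpp than in MNEB at 1 wkpp by a log2 fold change of -1.79 ± 0.24 and lower in SNEB than in MNEB at 16 wkpp by -1.81 ± 0.25 (adjusted p 0.000685 and 0.00157 for exonic reads, limma voom). NID1, nidogen 1, which links the laminin gamma 1 chain to collagen IV, was higher in SNEB at 16 wkpp by 2.23 ± 0.19 (adjusted p 0.000505). It was at 11756, 10846 and 8807 at -4 wkpp, 2763, 2855 and 2325 in MNEB and 12534, 13455 and 11086 in SNEB at 16 wkpp. Thus 1 of 7 passed in each direction at 16 wkpp and 1 of 7, as lower at -4 wkpp, in the comparison with MNEB at 1 wkpp. Of all genes 3.65% passed as lower and 1.57% as higher at 16 wkpp, and 1.35% as lower at -4 wkpp. In exonic reads alone, 3 of the 7 were higher and 1 lower at -4 wkpp than in MNEB at 1 wkpp at an adjusted p below 0.01. Of all genes tested 16.6% met this threshold, 756 of 1734 as higher at -4 wkpp. None of the 7 passed in the other 4 comparisons.

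Of 21 genes of the integrin adhesion complex, 19 were in the tables, and 5 passed as lower in SNEB than in MNEB at 16 wkpp and 0 as higher, beside 3.65% and 1.57% of all genes tested. They were ACTN1 (-1.72 ± 0.19), an actin crosslinker, FLNA (-1.62 ± 0.33), a filamin that binds integrin beta tails, LIMS2 (-1.38 ± 0.21) of the integrin-linked kinase complex, BCAR1 (-1.37 ± 0.22), a docking protein of focal adhesions, and TNS1 (-1.35 ± 0.22), a tensin. Their adjusted p was 0.000916 to 0.00879 for exonic reads (limma voom). The median log2 fold change of the 19 was -0.37 beside 0.03 over all genes. At 1 wkpp and in the remaining comparisons 0 of the 19 passed. FLNA and ACTN1 are also abundant in smooth muscle, whose markers are given beside ITGA7.

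Of 16 ligands of integrins, 14 were in the tables and 12 were tested. Of these 12, 4 passed between -4 wkpp and MNEB at 1 wkpp beside 2.97% of all genes, 2 between the diets at 16 wkpp beside 5.23%, and 0 in the other 4 comparisons. FN1 (fibronectin), COL1A2 (a chain of collagen I) and FBN1 (fibrillin 1) were higher at -4 wkpp than in MNEB at 1 wkpp, by log2 fold changes of 4.22 ± 0.41, 3.30 ± 0.32 and 2.63 ± 0.21, and ICAM3, a ligand of the leukocyte integrins, was lower by -1.55 ± 0.20 (adjusted p 7.1e-05 to 0.000597 for exonic reads, limma voom). At 16 wkpp FBN1 was higher in SNEB than in MNEB by 2.22 ± 0.29 and TNC, tenascin C, was lower by -2.29 ± 0.44 (adjusted p 0.00146 and 0.00725). FN1 at 16 wkpp was at 33106, 5493 and 23184 in MNEB and 73107, 171259 and 52116 in SNEB and did not pass. At 16 wkpp, FN1 was thus below SNEB in every MNEB library and its receptor subunit ITGA5 above.

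The other cell type markers are given by their sums. The 3 mast cell markers in the tables summed to 248 to 517 in the 6 MNEB libraries and 1137 to 4445 in the other 9. Of these, 2 passed as higher at -4 wkpp than in MNEB at 1 wkpp, beside 1.62% of all genes tested. Likewise 2 passed as higher in SNEB than in MNEB at 16 wkpp, beside 1.57%. In each of these comparisons 1 of the 3 lymphatic markers also passed as higher. The 3 lymphatic markers summed to 317 to 702 and 1208 to 2467, but LYVE1 alone set them apart, at 103 to 243 in MNEB and 832 to 1810 in the others, while PROX1 and PDPN overlapped. The 6 blood endothelial markers summed to 24395 to 64612 in MNEB, 23034 to 37768 in SNEB and 19803 to 24676 at -4 wkpp, and none passed in any comparison. The 7 adipocyte markers summed to 50561 to 60054 at -4 wkpp, 19752 to 56847 in MNEB and 72280 to 88252 in SNEB at 1 wkpp, and 10223 to 41007 in MNEB and 42248 to 48643 in SNEB at 16 wkpp. Of them 4 (LEP, CIDEA, CIDEC and GPD1) passed as higher at -4 wkpp than in MNEB at 1 wkpp, as did LAMA4 and 1.62% of all genes tested. Against SNEB at 1 wkpp 1 of the 7 adipocyte markers passed as higher at -4 wkpp, beside 0.0566% of all genes tested passing. The 5 T cell markers summed to 127 to 352 and the 4 Schwann cell markers to 431 to 6999 over the 15 libraries. The 4 erythrocyte markers summed to 14.6 to 340, with 14.6 to 18.8 in SNEB and 20.6 to 84.3 in MNEB at 16 wkpp, which did not overlap. The part of these cell types in the differences of integrin and laminin genes was not tested.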

How the data were processed

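Libraries were stranded, from total RNA after ribosomal depletion. According to the methods and labels, the authors trimmed reads with Cutadapt 1.3, aligned them with TopHat2 to bosTau8 and counted them with htseq-count (strand setting not given in the sources used here), on exons and on entire genes. For each comparison of 3 with 3 libraries, the deposited table (6 in all) holds the mean count over 6 libraries that the authors had normalised by DESeq2 size factors, which is the only value used. The authors' fold changes, standard errors, Wald statistics and p-values in the same tables were not used. No per-sample column was left out (0).

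The means are printed with 15 digits. From genes with few reads the value of 1 read in each library was found, and whole read counts of 15 libraries were solved for each gene by lattice reduction (sympy 1.14.0, gmpy2), to a relative tolerance of 2e-14. Counts were solved for 13894 of 13896 genes (not COL3A1 and RN7SL1), with a largest relative residual of 6.4e-15. The size factors recomputed from them differed from the authors' by at most 0.0759%, and 87 of 87 spike-ins solved in both analyses (of 92) had identical counts in both. A library was assigned to the group shared by the tables it enters, and libraries are not tied to individual samples. Spike-ins were left out of scaling and tests. No pair of libraries of a group agreed within sampling noise.

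Counts were scaled by median of ratios and compared with limma 3.58.1 (voom, R 4.3.3), fitted as 3 against 3 libraries over genes with a mean normalised count of at least 10 in both analyses. A gene passed at an adjusted p below 0.01 in both, the rule of the authors, and, as a condition added here, with the same sign. The counts were solved from deposited means rather than deposited as such, and limma was used on them. No count model was fitted. The scripts were tested on simulated data. The methods name 3 cows per energy balance group, so that cows recur between times, but no label says which libraries share a cow, and p-values measure the spread between these libraries. Named are all genes that passed, all beta subunits and the partners of genes that passed. Chosen after their values were seen were genes that met the threshold in exonic reads alone. So were genes given to account for every member. Of each of the 3 gene lists, at most 4 passing genes per comparison by size are named, with 1 more in the adhesion complex. The genes and lists, and marker lists of 14 cell types, were chosen with earlier results of these data known. The alternatives were other scalings, no filter, other weights, all 15 libraries in one fit, exonic or all reads alone, an adjusted p of 0.05 and leaving out each library. A fit with the deepest MNEB library alone was chosen after seeing the data. No sequence is shown, since only a gene table (RefSeq, ARS-UCD2.0) was used here.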

Additional observations from a re-analysis of the deposited data

Results flagged for a closer look

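The spike-in RNAs, which enter no comparison, took a larger share of the reads in MNEB than in any library at -4 wkpp. Over the 87 spike-ins with solved counts, the lowest share was 3.80% in MNEB at 1 wkpp and 3.64% in MNEB at 16 wkpp, against a highest share of 1.91% at -4 wkpp. Groups of 3 libraries are too small for the outlier test applied elsewhere, and no integrin or laminin gene moved in opposite directions from 1 to 16 wkpp in the 2 diets without overlap in exonic counts.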

How the results depend on the processing

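No paired analysis was possible because the labels number the samples 1 to 15 without repeating a number between groups. Counts of integrin and laminin genes that passed depended on the settings. For -4 wkpp against MNEB at 1 wkpp 1 gene passed, beside 310 of all genes, whose number is in brackets for the other settings. The count was 8 (1734) with exonic reads alone and 7 (1279) at an adjusted p of 0.05. With scaling by total counts it was 2 (478), ITGA10 being added, and without the filter 0 (67). Limma trend gave 2 (419), sample quality weights 8 (1684) and all 15 libraries in one fit 9 (1167). When 1 library was left out the count was 0 to 4, with 4 (296) without MNEB library 1 and 0 without any other. For -4 wkpp against SNEB at 1 wkpp (0 genes) the count was 2 with quality weights. With 1 library left out it was 0 to 1, beside 0 to 160 of all genes, LAMB1 passing without SNEB library 1. For SNEB against MNEB at 1 wkpp (0 genes) it was 2 with exonic reads, beside 254 of all genes. It was 2 at 0.05, 6 with quality weights and 4 with all libraries. With 1 library left out it was 0 to 2 (2 without MNEB library 1), beside 0 to 368 of all genes. For SNEB against MNEB at 16 wkpp (3 genes) it was 8 with exonic reads, beside 1047 of all genes, 8 at 0.05 and 6 with quality weights. With upper quartile scaling it was 2, ITGA3 being lost at an adjusted p of 0.01004 for exonic reads (limma voom). With 1 library left out it was 1 to 2, with 1 without MNEB library 1 or SNEB library 1 or 3, ITGA7 in each. The 2 comparisons of 1 with 16 wkpp stayed at 0 under all their alternatives, 0 to 0 with 1 left out, and so did the difference between the diets under its own. With the deepest MNEB library alone, 1 or 0 of all genes passed, since 3 libraries face 1. The causes of the other shifts were not tested. Of 288 values of the 18 differences with an adjusted p below 0.01 in either analysis, 0 changed sign. These differences were chosen from the same data for their small adjusted p, and the refits reuse most of the libraries. Settings that change only the threshold give the same fold change, so the unchanged signs are no independent support. Among all genes, those passing numbered 310 and 531 in the comparisons of -4 wkpp with MNEB at 1 wkpp and of the diets at 16 wkpp, and 2 to 296 (2 to 12 without a -4 wkpp library, 31 and 36 without MNEB library 3 or 2) and 112 to 385 (over 1.5 times fewer without any library but SNEB library 2) with 1 library left out. Scaling by total counts moved the median of all genes between -4 wkpp and MNEB at 1 wkpp from 0.04 to -0.13 (log2), and LAMA4 from 1.71 to 1.53. Depths of 2034144 to 2921818 exonic reads in 4 MNEB libraries limit genes of few reads such as ITGAD and ITGB6.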
